A study of Mus musculus with 7 samples.

Results

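The bodies of very long genes were examined for 5-formylcytosine (5fC) in mouse embryonic stem (ES) cells. The set holds the 503 autosomal protein-coding genes of GENCODE release M1 on mm9 that span at least 300 kb, of 21418 autosomal protein-coding genes in all, and it was compared with the 7047 genes of 20 to 100 kb. 5fC was labelled with biotin through its formyl group, captured and sequenced in J1 cells, an ES cell line of the 129S4/SvJae strain, under 3 conditions with 2 libraries each. TDG KD cells received an siRNA pool against Tdg and siRNA control cells a non-targeting siRNA, both in 3 rounds of transfection and without feeder cells, and wild type cells were not transfected and grew on irradiated feeder fibroblasts. The siRNA lowers Tdg and does not delete it, and its transcript was not measured in these files. All pulldowns were set against 1 genomic input library, so a feature of that input is shared by all 6.

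5fC is an oxidation product of 5-methylcytosine, made by the TET enzymes by way of 5-hydroxymethylcytosine. Thymine DNA glycosylase (TDG) removes it, and base excision repair then puts an unmodified cytosine in its place. In mammals most cytosine methylation lies at CpG dinucleotides, which are sparse in the genome and dense in CpG islands (CGIs), many of which cover gene starts. Very long genes consist almost entirely of intron. Many of them encode cell adhesion molecules, ion channels and receptors of neurons, and several cover common fragile sites, where chromosomes break under replication stress.

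Exons made up 1.78% of the body of the long genes on average, against 11.8% in genes of 20 to 100 kb. The long genes had a median length of 438.6 kb and covered 282.7 Mb. Their GC content averaged 41.3 ± 3.31% (SD over genes) and their CpG density 7.94 per kb, against 44.6 ± 4.52% and 11.6 per kb in genes of 20 to 100 kb. A CGI lay within 1 kb of the start in 357 long genes (70.97%) and in 68.2% of genes of 20 to 100 kb. Of the long genes, 386 overlapped no other protein-coding gene. The most extended models are unusual. Gm20388 (4435 kb, chromosome 8) and Fgfr2 (3009 kb, chromosome 7), a fibroblast growth factor receptor, each have a transcript of that full length that runs over 74 and 32 other protein-coding genes, and 11 other members have no transcript that reaches 300 kb by itself.

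The sequence behind the values is shown for members of high wild type share and for members with 0% in wild type replicate 2. The starts are shown because islands and non-islands differ there, as the 120 bases just upstream of the annotated start in mm9, read on the strand of the gene with each CpG in capitals. Rbfox3 (chr11:118772912-118773031, minus strand), an RNA-binding splicing factor of neurons, had no island at its start. Prdm16 (chr4:154010983-154011102, minus strand), a zinc finger transcription regulator, had one, and so had 1700007G11Rik (chr5:98758253-98758372, plus strand), which is one of the 130 long genes with 0% in wild type replicate 2. They hold 2, 15 and 18 CpGs, in this order.
Rbfox3, upstream: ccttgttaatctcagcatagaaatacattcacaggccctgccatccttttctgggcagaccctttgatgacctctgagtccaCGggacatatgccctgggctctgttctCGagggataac
Prdm16, upstream: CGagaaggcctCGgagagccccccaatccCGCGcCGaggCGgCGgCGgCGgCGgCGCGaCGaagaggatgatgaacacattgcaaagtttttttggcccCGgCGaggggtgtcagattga
1700007G11Rik, upstream: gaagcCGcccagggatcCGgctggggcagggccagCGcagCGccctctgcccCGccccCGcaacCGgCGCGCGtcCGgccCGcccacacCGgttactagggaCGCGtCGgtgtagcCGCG

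Most of a long gene is intron, so 2 stretches of intron are shown as well, each 120 bases from the middle of a wide stretch of uniform state. The first (chr11:118367440-118367559) comes from the widest single stretch of Rbfox3 enriched in all 6 libraries, 32.9 kb of the 367.9 kb so enriched. The second (chr13:77390866-77390985) comes from the widest stretch of 2210408I21Rik enriched in none, of 121.8 kb. They have 55.0% and 33.3% GC, with 2 and 1 CpGs, again in capitals.
Rbfox3, intron: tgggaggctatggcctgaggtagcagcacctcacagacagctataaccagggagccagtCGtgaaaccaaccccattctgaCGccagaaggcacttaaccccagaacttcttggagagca
2210408I21Rik, intron: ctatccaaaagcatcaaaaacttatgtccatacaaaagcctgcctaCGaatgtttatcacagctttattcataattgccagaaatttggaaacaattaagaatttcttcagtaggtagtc

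The libraries differ in ways that bear on every value. The authors called domains separately in each library, as enriched, background or unconfident, and the enriched share of a gene is the percentage of its length in enriched domains. In wild type replicate 1, 389620 enriched domains were called and their median width was 700 bp. The other 5 libraries had 4901 to 40121, with medians of 5900 to 24550 bp. TDG KD replicate 1, the shallowest library, had 6.32% of the covered sequence enriched and 19.8% unconfident, against 18.7 to 22.2% enriched and at most 0.247% unconfident in the others. The second measure is the excess, the domain value minus the library mean, given as reads per 100 kb and per 1e+06 uniquely placed reads (M reads). The domain value is pulldown minus input reads, and only the depth of the pulldown is divided out. The input therefore weighs more in shallower libraries, which bears on every comparison of excess between libraries and conditions. Cell identity could not be checked, since only DNA was measured.

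The mean 5fC-enriched share of the body was lower in long genes than in shorter ones in every library. The mean enriched share of the body of long genes was 5.24% and 18.8% in TDG KD, 20.2% and 17.9% in the siRNA control and 16.0% and 16.5% in wild type cells, replicate 1 first. In genes of 20 to 100 kb it was 13.3% and 42.9% in TDG KD, 41.4% and 41.0% in the siRNA control and 36.2% and 42.4% in wild type cells. The ratio of long to shorter genes lay between 0.388 and 0.487, and TDG KD replicate 1 was the low library in both classes. Medians over genes were lower than the means. They had the other order in TDG KD replicate 1, at 0.497% in long genes and 0% in shorter ones. In the other libraries the median was 2.96 to 9.50% in long genes and 22.2 to 32.2% in shorter ones.

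Averaged over the 6 libraries, the body share was 15.8 ± 5.37% in long genes and 36.2 ± 11.5% in genes of 20 to 100 kb (SD, n = 6). The difference was -20.4 ± 6.39 percentage points and had the same sign in all 6 libraries (exact two-sided sign-flip permutation test over 6 libraries, p = 0.03125, the smallest this design allows, and the same after Benjamini-Hochberg adjustment over 8 contrasts). This p-value is reached whenever all 6 libraries have the same sign, and it does not measure their spread. The libraries share an input, and replicates are biological by the study's account. The difference was -20.0 points without chromosome 8 and -21.9 points between genes that overlap no other gene.

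The body excess gave the same direction. Long genes had -0.534 and -0.865 reads per 100 kb and M reads in TDG KD, -0.176 and -0.0946 in the siRNA control and -1.19 and -1.08 in wild type cells, all just below the library mean. In genes of 20 to 100 kb the excess was 1.67 and 7.48 in TDG KD, 4.73 and 2.55 in the siRNA control and 12.5 and 6.87 in wild type cells. The mean difference was -6.63 ± 4.33 (SD, n = 6; exact sign-flip permutation test, p = 0.03125).

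**Figure D1:**
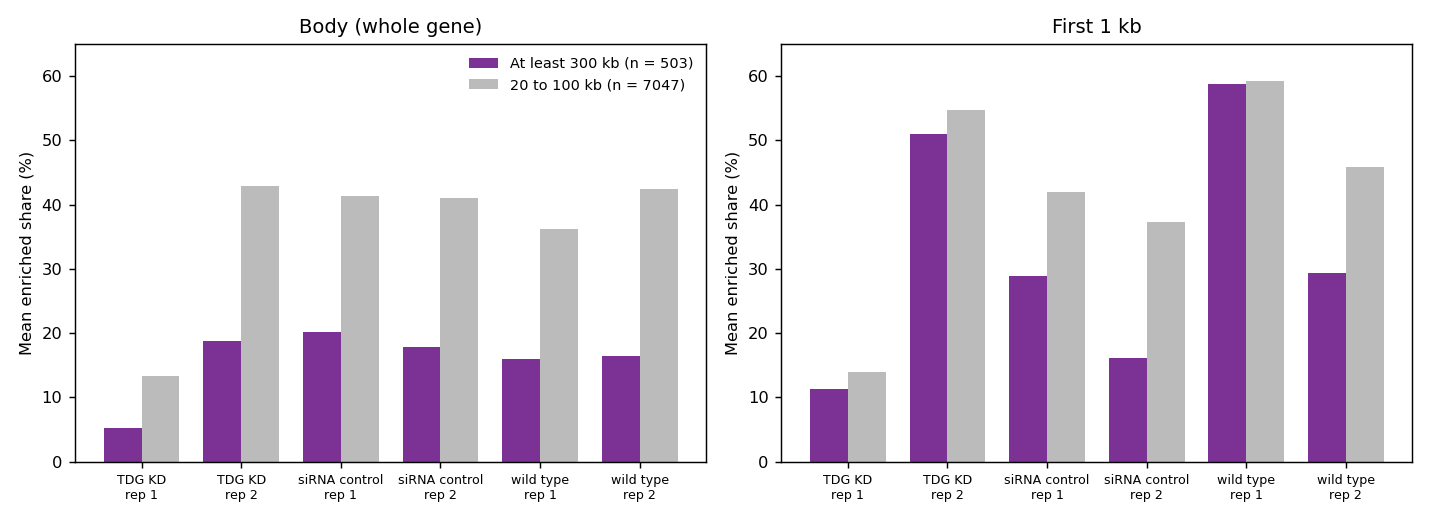
Mean percentage of sequence in 5fC-enriched domains (y axis, linear from 0) per library for the 503 genes of at least 300 kb (purple) and the 7047 genes of 20 to 100 kb (grey), over the whole gene on the left and over the first 1 kb on the right. Bars are means over genes in 1 library, with no error bar. The body of long genes lies between 5.24 and 20.2% and below that of shorter genes in all 6 libraries, while in the first 1 kb wild type replicate 1 has 58.8% in long and 59.2% in shorter genes.

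Averaged over the 6 libraries, body share was lower in each longer class of genes, on both sides of 300 kb. TDG KD replicate 1 departed from this order, with 5.43% at 300 to 500 kb, 4.74% at 500 to 1000 kb and 5.50% at 1000 kb or more. Over the 6 libraries body share averaged 9.04 ± 1.96% in the 48 genes of at least 1000 kb, 12.4 ± 3.98% in 140 genes of 500 to 1000 kb and 18.3 ± 6.53% in 315 genes of 300 to 500 kb. It was 23.7 ± 8.46% at 200 to 300 kb, 27.1 ± 9.35% at 100 to 200 kb, 30.3 ± 9.74% at 50 to 100 kb and 39.2 ± 12.3% at 20 to 50 kb (SD over libraries, n = 6). Mean GC content moved with it, at 39.7% in the genes of at least 1000 kb and 45.1% in those of 20 to 50 kb. The enriched share of the first 1 kb changed less, at 26.2% and 44.3% in the same classes. Pam, Nxph1 and Cntn3, of 300.5 to 301.4 kb, had mean body shares of 0.686, 0.647 and 0.426%, and Jazf1, Pde1c and Akap13, of 299.1 to 299.8 kb, had 36.2, 0.895 and 6.50%.

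**Figure D2:**
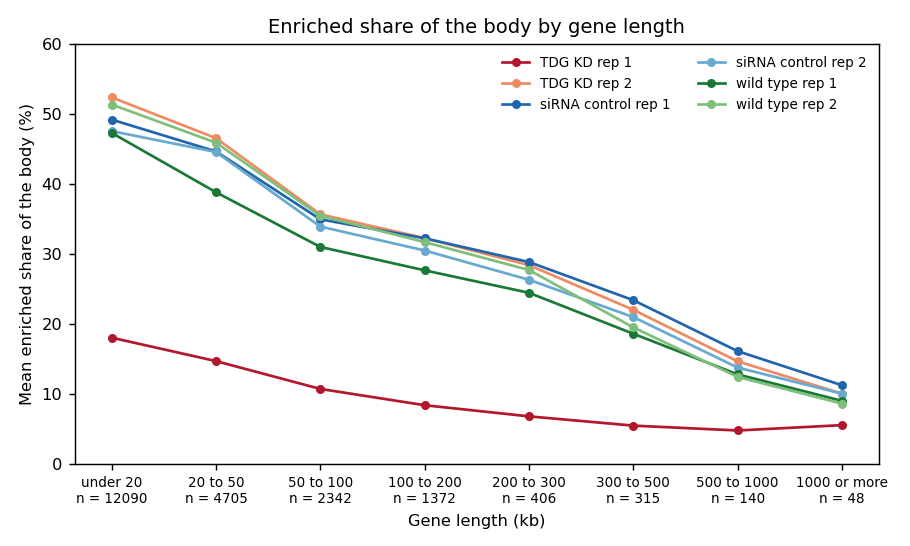
Mean enriched share of the gene body (y axis, percent) by gene length class (x axis, kb, with the number of genes) in each of the 6 libraries (colored lines). The mean over libraries is 9.04% in genes of at least 1000 kb and 39.2% at 20 to 50 kb, and TDG KD replicate 1 lies below the other libraries throughout.

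Between genes of like GC content the gap was far smaller. Between genes of 38 to 42% GC, 225 long and 1841 of 20 to 100 kb, the body share was 4.80 ± 2.05% in long genes and 4.22 ± 2.64% in the shorter ones (SD, n = 6). The difference of 0.58 ± 1.12 points had the opposite sign to that over all genes and did not pass the test (exact sign-flip permutation test, p = 0.25), and 5 of 6 libraries were higher in long genes. The exception was wild type replicate 1, at 7.38% in long genes and 8.90% in shorter ones. With GC content under 38% the body share averaged 0.573 ± 0.560% in 88 long genes and 0.857 ± 0.841% in 394 shorter ones. At 44 to 46% GC it was 39.2 ± 14.7% in 71 long genes and 35.7 ± 14.3% in 1052 shorter ones, and long genes were higher in 5 of 6 libraries, by up to 9.10 points. At 46% GC or more it was 68.4 ± 21.9% in 40 long genes and 73.1 ± 21.8% in 2601 shorter ones. In this highest class long genes were lower in all 6 libraries, with differences of -8.38 to -0.252 points. The class has no upper limit, and GC content reached 51.9% in long genes and 59.4% in genes of 20 to 100 kb. GC content was not matched within it. Of the long genes 88 of 503 lay under 38% GC, against 394 of 7047 shorter ones. In wild type replicate 1 long genes were lower in each of the 6 classes of GC content, with differences of -8.38 to -0.901 points. The sign varied between classes in every other library.

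Across the 503 long genes the body share followed GC content closely within each library, with Spearman correlations of 0.61 to 0.97 and a median of 0.92. With CpG density they were 0.51 to 0.87, and with length -0.21 to -0.04. The points are genes of 1 library that share its depth and its input, and no p was computed. Pairs of libraries ranked the long genes alike, with Spearman correlations of 0.58 to 0.96.

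**Figure D3:**
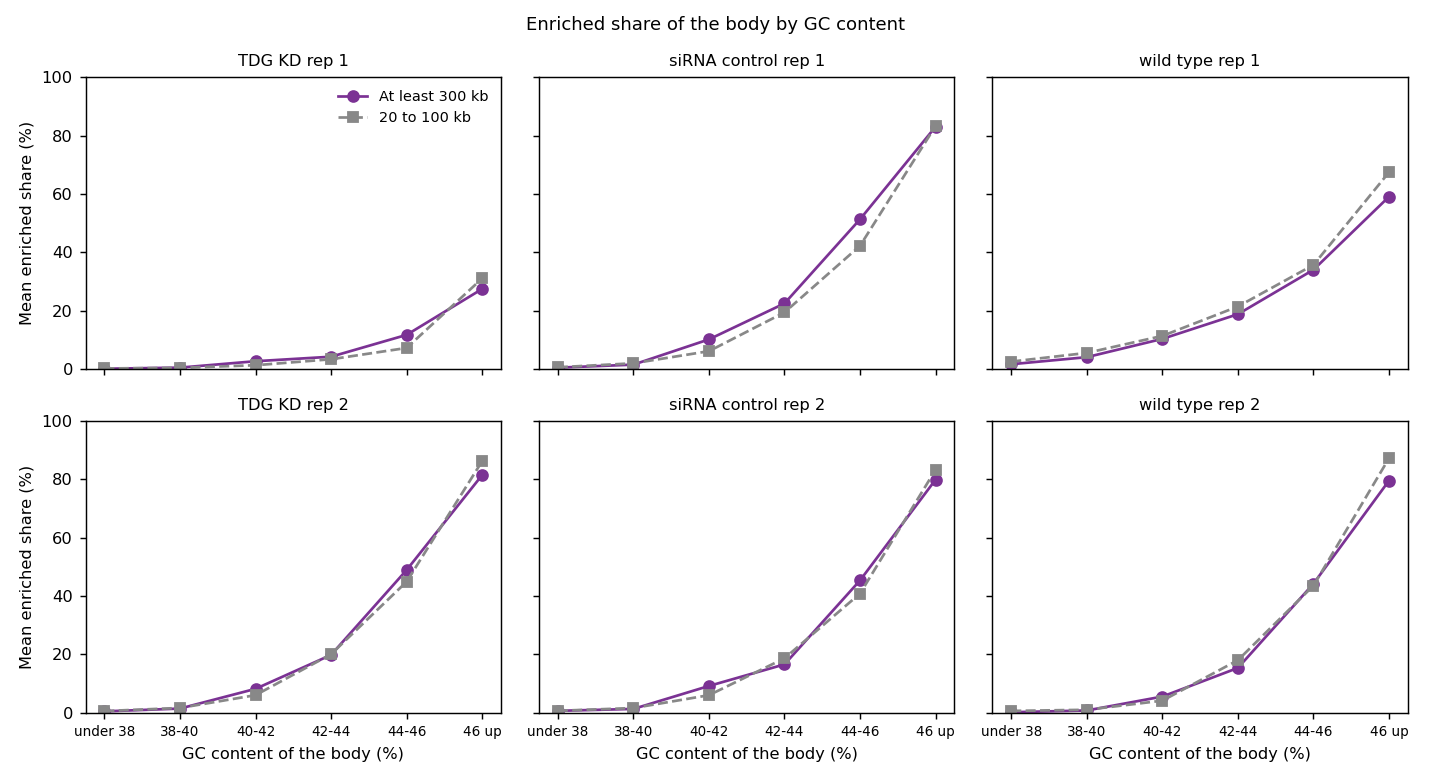
Mean enriched share of the gene body (y axis, percent) against GC content of the body (x axis, percent, 6 classes) for long genes (purple circles) and genes of 20 to 100 kb (grey squares), 1 panel per library. The curves of both length classes lie close together in each library, and the mean over libraries goes up with GC content from 0.573% under 38% to 68.4% at 46% or more in long genes.

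The first 1 kb of long genes had a higher 5fC-enriched share than the gene behind its first 10 kb in 5 of 6 libraries, all but siRNA control replicate 2. In the first 1 kb the enriched share of long genes was 11.4% and 51.0% in TDG KD, 29.0% and 16.1% in the siRNA control and 58.8% and 29.3% in wild type cells, against 13.9% and 54.7%, 41.99% and 37.3%, and 59.2% and 45.8% in genes of 20 to 100 kb. In the first 10 kb long genes had 8.11% and 26.1% in TDG KD, 22.7% and 15.0% in the siRNA control and 22.5% and 19.1% in wild type cells. The first 10 kb averaged 18.9 ± 6.49% and the rest of the long genes 15.7 ± 5.37% (SD, n = 6). In siRNA control replicate 2, the library with the widest domains, the first 10 kb lay below the rest, with a difference of -2.94 points.

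The start of long genes stood out from the rest of the gene more than the start of shorter genes did. In genes of 20 to 100 kb the first 10 kb lay below the rest in every library, with differences of -4.66 to -0.586 points, and the difference between the classes in first 10 kb minus rest was 6.03 ± 3.06 points (SD, n = 6; exact sign-flip permutation test, p = 0.03125, higher in 6 of 6 libraries). On the excess it was 2.13 ± 1.98 reads per 100 kb and M reads (p = 0.03125 by the same exact test). With base pairs pooled over genes the differences were 3.87 points (exact p = 0.0625) and 1.25 (exact p = 0.09375). In absolute terms the first 10 kb was still lower in long genes, with differences of -15.3 ± 6.43 points of share and -4.75 ± 2.70 of excess (exact sign-flip permutation test, p = 0.03125 for both). The first 10 kb and the rest had 43.3% and 41.2% GC in long genes, and 45.2% and 44.5% in genes of 20 to 100 kb. The GC content of these windows was not matched, and the rest is a far shorter stretch in the shorter genes.

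At 38 to 42% body GC the order of the starts was the other way round. The first 10 kb of long genes had 8.28 ± 4.47% enriched, against 5.28 ± 3.24% in shorter genes, a difference of 3.00 ± 1.78 points that was positive in 6 of 6 libraries (SD, n = 6; exact sign-flip permutation test, p = 0.03125). The first 1 kb had 22.8 ± 19.6% in long genes, against 16.2 ± 15.3% in shorter ones. First 10 kb minus rest differed between the classes by 2.11 ± 1.98 points of share and 0.86 ± 0.94 of excess there, less than over all genes but still past the test (SD, n = 6; exact sign-flip permutation test, p = 0.03125 for both). Only the GC content of the whole body was matched, with means of 40.1% in long and 40.2% in shorter genes of this class. That of the first 10 kb itself was not matched, and the first 10 kb is a far smaller part of a long gene.

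The first 1 kb of long genes was enriched over more of its length at islands in all 6 libraries, a comparison given without a test. At the 357 long genes with a CGI the first 1 kb was enriched over 13.2% and 61.9% in TDG KD, 33.8% and 17.3% in the siRNA control and 70.7% and 33.9% in wild type cells. At the 146 without one it was enriched over 6.85% and 24.6% in TDG KD, 17.1% and 13.0% in the siRNA control and 29.6% and 18.2% in wild type cells. The body differed less between them, with shares in wild type cells of 17.3% and 17.9% in genes with an island start and 13.0% in both replicates in genes without one. Wild type replicate 1 and TDG KD replicate 2, with the highest shares at starts, are the libraries with the narrowest enriched domains. The GC content of the first 1 kb averaged 56.5% in long genes and 55.2% in shorter genes.

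An enriched start with little 5fC-enriched sequence behind it was found in 50 long genes, where both wild type replicates had at least 50% of the first 1 kb and under 20% of the body enriched. They made up 9.94% of the long genes, against 1.77% of all autosomal protein-coding genes and 2.54% of those of 20 to 100 kb, and 45 of the 50 have an island at the start. The body part of this call is met more often by long genes in any case. Among them are the ryanodine receptors Ryr2 and Ryr3, calcium channels of the endoplasmic reticulum, the extracellular guidance protein Reln, and the adhesion molecules Dscam, Lsamp, Opcml and Cadm1. The sharpest case, chosen after its values were seen, was Gpr158 (chr2:21289169-21752174), an orphan G protein-coupled receptor. Its first 1 kb was enriched over 92.3% and 100% in TDG KD, 100% in both siRNA control replicates and 92.3% and 100% in wild type cells. Its body share was 0.497% and 1.74% in TDG KD, 3.08% and 0.794% in the siRNA control and 4.25% and 0.729% in wild type cells.

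5fC-enriched sequence increased again towards the 3′ end of long genes. The gene behind its first 10 kb was cut into 10 equal segments, and the mean share over the 6 libraries was 14.7% in the first segment, 13.7% in the fifth, 17.02% in the eighth and 22.4 ± 7.64% in the last (SD, n = 6). The lowest segment was the third to the fifth in every library. The last segment was enriched over 7.45% and 26.4% in TDG KD, 28.2% and 25.7% in the siRNA control and 21.5% and 24.98% in wild type cells. Last minus first segment was 7.64 ± 2.93 points (SD, n = 6; exact sign-flip permutation test, p = 0.03125, higher in 6 of 6 libraries). In genes of 20 to 100 kb the first segment was the lowest in every library, and the last lay 2.29 to 9.16 points above it, so the shorter genes increased along their length too. The difference between the classes in this increase was not tested. In the 10 kb downstream of the gene long genes had 21.2 ± 6.47% enriched.

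The GC content of the segments moved with this profile. It was 41.2% in the first segment of long genes, 40.8% in the fifth and 42.1% in the last. In the 307 long genes whose last segment had more GC than the first, last minus first segment was 5.36 to 20.9 points, by library, and in the other 196 it was -8.51 to -1.66 points.

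**Figure D4:**
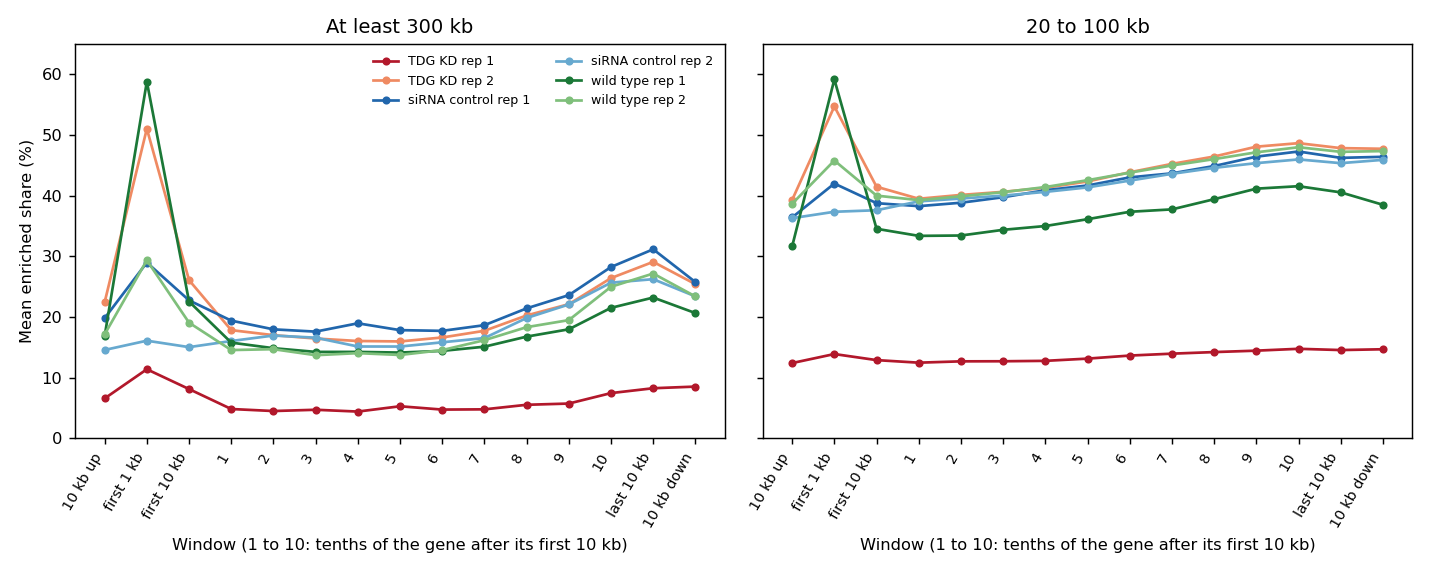
Mean enriched share (y axis, percent) in windows along the gene (x axis: 10 kb upstream, the first 1 kb, the first 10 kb, segments 1 to 10 of the gene behind its first 10 kb, the last 10 kb and 10 kb downstream) for long genes on the left and genes of 20 to 100 kb on the right, 1 colored line per library. In long genes the last segment lies between 7.45 and 28.2%, above the first segment in every library, and the middle is lowest.

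Exons of long genes were enriched over more of their length than introns. The exon share was 7.46% and 28.8% in TDG KD, 26.6% and 22.1% in the siRNA control and 31.3% and 24.0% in wild type cells, and the intron share 5.21% and 18.6%, 20.1% and 17.8%, and 15.8% and 16.3%. The difference of 7.75 ± 4.70 points passed the test (SD, n = 6; exact sign-flip permutation test, p = 0.03125). Exons of long genes had 46.8% GC and introns 41.2%, and the exons include the first one, at the gene start. Genes of 20 to 100 kb had the same order in every library, with mean shares of 41.1% in exons and 35.6% in introns. The ratio of exon to intron share was 1.24 to 1.99 in long genes and 1.08 to 1.35 in the shorter ones, a difference that was not tested. In introns alone, which were taken after the data were seen, the contrasts of long with shorter genes kept their directions.

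In each of the 6 libraries a smaller percentage of the islands inside long genes, behind the first 10 kb, was enriched than of those inside shorter genes. The 503 long genes held 978 such islands, of which 19.9% and 34.5% had at least 50% of their length enriched in TDG KD, 31.5% and 29.4% in the siRNA control and 32.9% and 25.8% in wild type cells. Gm20388 and Fgfr2 alone held 177 of them. Without these 2 genes, a set taken after the data were seen, the long genes held 801, 0.291 per 100 kb, of which 6.37% and 23.3% had at least 50% of their length enriched in TDG KD, 18.7% and 16.98% in the siRNA control and 25.5% and 17.6% in wild type cells. Genes of 20 to 100 kb held 1425, 0.452 per 100 kb, with 28.7% and 71.4% in TDG KD, 63.4% and 60.9% in the siRNA control and 73.6% and 68.4% in wild type cells. The difference was not tested. Transcript starts annotated inside all 503 long genes at an island, 164 in all, had 8.54% and 64.9% of the following 1 kb enriched in TDG KD, 37.3% and 22.6% in the siRNA control and 64.9% and 46.7% in wild type cells. The other 1244 inner starts had 25.6% and 24.5% enriched in wild type cells.

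Few long genes had 5fC over most of the body. At least 50% of the body was enriched in both replicates in 16 long genes (3.18%) in TDG KD, 64 (12.7%) in the siRNA control and 28 (5.57%) in wild type cells. The same call was met by 14.4% of all autosomal protein-coding genes in TDG KD, 37.2% in the siRNA control and 35.7% in wild type cells, so the share of long genes lay below the background in each condition. In single libraries, replicate 1 first, 16 and 72 long genes reached 50% in TDG KD, 80 and 69 in the siRNA control and 28 and 60 in wild type cells. The counts over both replicates are thus limited by TDG KD replicate 1 and wild type replicate 1. They are not read as a difference between conditions. The GC content of the 28 called in both wild type replicates ran from 46.5 to 51.9%. Under 5% of the body was enriched in both wild type replicates in 165 long genes (32.8%), against 19.2% of all genes, and their GC content ran from 34.8 to 42.8%. Under 5% in all 6 libraries was found in 158 (31.4%), against 12.2% of genes of 20 to 100 kb. On average 66.1% of a long gene was enriched in no library, against 39.9% of a gene of 20 to 100 kb, and 2.12% in all 6, against 8.77%. The values for all 6 cannot exceed those of TDG KD replicate 1, the library of lowest body share in both classes.

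Of the 10 longest genes, 7 had nearly no 5fC-enriched sequence. Ptprd (chr4:75587142-77857865, 2271 kb, a receptor protein tyrosine phosphatase) had a body share of 0% and 0.154% in TDG KD, 0% in both siRNA control replicates and 0.788% and 0.145% in wild type cells. Lrp1b (chr2:40450768-42509118, 2058 kb, of the LDL receptor family) had 0% and 0.207% in TDG KD, 0.160% and 0% in the siRNA control and 0.923% and 0% in wild type cells. Cntnap2 (2241 kb, a neurexin-like adhesion protein) had at most 2.06%, Macrod2 (1998 kb) at most 2.49%, Dlg2 (1945 kb, a synaptic scaffold) at most 2.31%, Nrxn3 (1612 kb, presynaptic neurexin) at most 2.62% and Fhit (1612 kb, a fragile site gene) at most 3.73% in any library. For each of these 7 the highest library was wild type replicate 1.

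Csmd1 (chr8:15892537-17535586, 1643 kb), a transmembrane protein with complement-like domains, differed by condition. Its body share was 8.95% and 18.4% in TDG KD, 27.4% and 35.7% in the siRNA control and 6.41% and 2.90% in wild type cells, so both siRNA conditions lay above wild type. Gm20388 had 97.6% and 97.5% in TDG KD, 98.2% and 99.5% in the siRNA control and 80.1% and 94.2% in wild type cells, at 51.1% GC. Fgfr2 had 6.05% and 52.9% in TDG KD, 52.7% and 48.5% in the siRNA control and 40.8% and 52.3% in wild type cells. Unconfident sequence in TDG KD replicate 1 made up 15.9% of the body of Csmd1 and 54.2% of that of Fgfr2.

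The highest wild type shares belonged to GC-rich genes. Rbfox3 (chr11:118351074-118772911, 421.8 kb, 51.9% GC) was enriched over 100% of its body in TDG KD and siRNA control libraries and over 87.2% and 100% in wild type cells. Its excess was 21.2 and 36.3 reads per 100 kb and M reads in TDG KD, 25.7 and 15.2 in the siRNA control and 44.8 and 29.6 in wild type cells. Prdm16 (chr4:153690234-154010982, 320.7 kb) had 100% and 97.8% in TDG KD, 100% in both siRNA control replicates and 82.9% and 98.7% in wild type cells. Sorcs2 (381.0 kb, a sorting receptor) had 100% in all siRNA libraries and 81.8% and 97.2% in wild type cells. These 3 were high everywhere, with no library under 81%.

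Other members of high wild type share were at 0% in TDG KD replicate 1 or lowest there. Mad1l1 (312.9 kb, spindle checkpoint) had 0% and 98.7% in TDG KD, 100% and 99.0% in the siRNA control and 81.8% and 99.4% in wild type cells. Shank2 (422.6 kb, postsynaptic scaffold) had 0% and 97.8% in TDG KD, 97.7% and 100% in the siRNA control and 73.0% and 96.6% in wild type cells. Megf11 (323.6 kb, a transmembrane protein with EGF repeats) had 0% and 94.9% in TDG KD, 94.0% and 94.9% in the siRNA control and 70.3% and 94.4% in wild type cells. In TDG KD replicate 1 these bodies were unconfident over 100%, 99.6% and 94.6% of their length, so they were not called background there. Cdh23 (393.7 kb, a cadherin of hair cells) had 19.0% in that library, with 79.4% of its body unconfident, and 77.4 to 100% in the others. Cdh4 (456.9 kb, retinal cadherin) had 74.0% and 94.3% in TDG KD, 96.8% and 94.2% in the siRNA control and 76.2% and 96.4% in wild type cells. Camta1 (802.4 kb, a transcription activator that binds calmodulin) had 55.2% and 86.0% in TDG KD, 83.6% and 90.8% in the siRNA control and 70.0% and 89.4% in wild type cells. In these 2 genes wild type replicate 1 was low as well, and 23.3% and 38.6% of the body was unconfident in TDG KD replicate 1.

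In wild type replicate 2, 130 long genes had a body share of 0%. The 5 of them named here, 1700007G11Rik, 2210408I21Rik, 4921528I01Rik, 5033411D12Rik and A330008L17Rik, are the first in alphabetical order, whatever their values in the other libraries. The last of them, on chromosome 8, had 3.47% and 5.34% in TDG KD, 4.96% and 28.7% in the siRNA control and 3.01% and 0% in wild type cells. The other 4 had at most 6.001% in any library, a value of 1700007G11Rik in wild type replicate 1, where the median long gene had 9.50%. The island start of 1700007G11Rik, with 33 CpGs in its first 1 kb, was enriched over 40% of that 1 kb in wild type replicate 1 and over 0% in the other libraries.

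**Figure D5:**
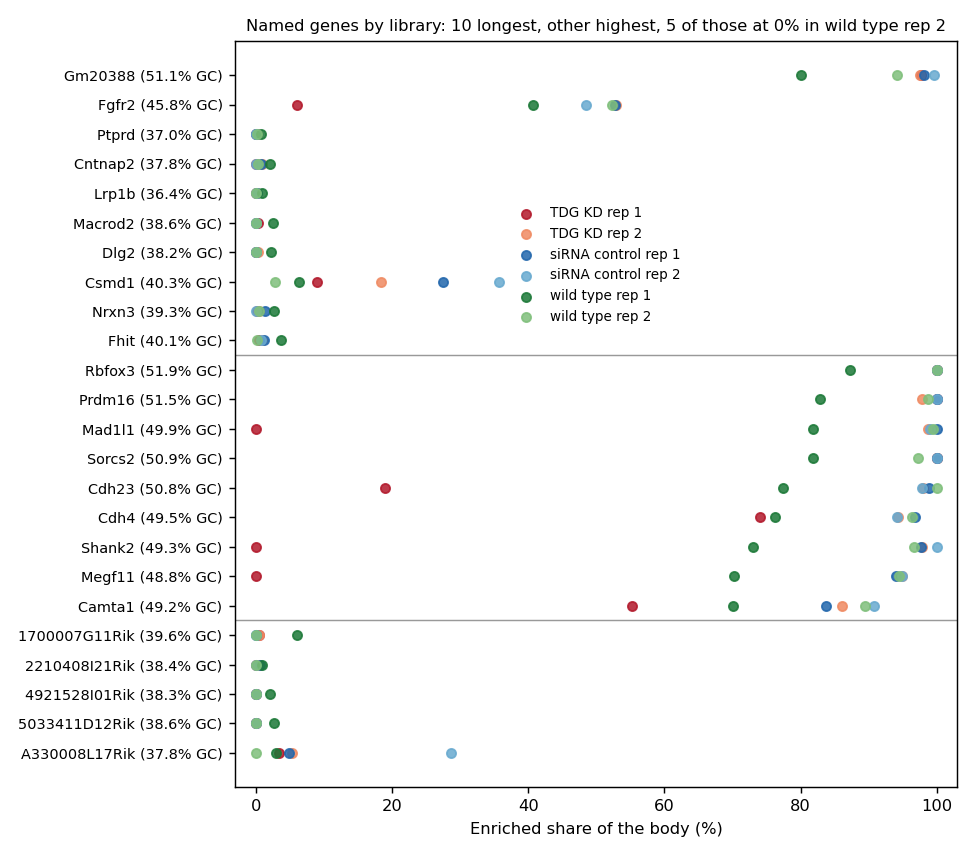
Enriched share of the body (x axis, percent) in each library (colored points) for the 10 longest genes (top), the other genes of highest wild type share (middle) and 5 of the 130 genes with 0% in wild type replicate 2 (bottom), with GC content beside each name. Rbfox3, Prdm16 and Sorcs2 lie above 81% in all libraries, Mad1l1, Shank2 and Megf11 are at 0% in TDG KD replicate 1, and most of the 10 longest genes lie under 4%.

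Long genes of the cell adhesion and axon guidance list had the lowest median among 6 lists. The 48 members of that list at least 300 kb long had a median body share, averaged over the 6 libraries, of 0.623%, against 5.17% over all 503 long genes, and a mean GC content of 39.3%. Their range went from Cdh12 and Epha5 (a cadherin and an ephrin receptor) at 0.115% and 0.116% to Cdh4 at 88.6% and Cdh13 at 86.9%. In wild type cells 4 of the 48 had at least 50% of the body enriched in both replicates. This call was met by 5.57% of all long genes and 35.7% of all autosomal protein-coding genes. With so few genes called, the count is not read as a trait of the list.

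Ion channels and neurotransmitter receptors had a median of 3.18% over 41 genes. Of these, 3 were called by the same rule in wild type cells and 9 in the siRNA control, where 12.7% of all long genes and 37.2% of all autosomal protein-coding genes were called. Gabbr2, a subunit of the GABA B receptor, had 85.8% and Grik4, a kainate receptor subunit, 68.0%, while its relative Grik2 had 0.155%. The 14 common fragile site genes had a median of 2.57%, none called in wild type cells and 2 in the siRNA control. The highest, Wwox at 83.6% and Large at 27.2%, both lie on chromosome 8, and Lrp1b and Dlg2 at 0.215% and 0.449% were lowest.

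The other lists had medians closer to or above that of all long genes. The 19 genes of trafficking and metabolism had 3.58%, with Trappc9 at 60.2% and Gphn, the receptor-anchoring protein gephyrin, at 0.377%. The 31 transcription and RNA regulators had 9.52%, with Rbfox3 at 97.9% and Prdm16 at 96.6% at the top and Khdrbs2 and Zfpm2 at 0.216% and 0.349% at the bottom. The 29 kinases, phosphatases and phosphodiesterases had 13.3%, with Ulk4 at 72.9%, Prkce, a protein kinase C, at 62.9%, and the receptor kinase Erbb4 at 0.156%. Mean GC content was 42.7% and 42.3% in these last 2 lists, and the medians of all lists are descriptions with no test.

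TDG KD did not move the body share of long genes by more than the replicates differ. It averaged 12.0 ± 9.58% in TDG KD and 19.0 ± 1.61% in the siRNA control (SD, n = 2 each), a difference of -7.02 points (exact two-sided permutation test, p = 0.667, with 0.333 the smallest that 2 against 2 allow). Library names begin with BHAM or EAR, a possible batch that holds 1 library of each siRNA condition. Within BHAM the difference was -14.9 points, at 5.24% in TDG KD and 20.2% in the siRNA control, and within EAR it was 0.90 points, at 18.8% and 17.9%. The ratio of TDG KD to siRNA control was 0.260 within BHAM and 1.05 within EAR in long genes, against 0.322 and 1.05 in genes of 20 to 100 kb, so the shorter genes moved the same way. Share and excess are relative to the input, and the excess also to the library mean, so neither measures the amount of 5fC. Whether that amount rose or fell in long genes on TDG KD was not tested. The paper reports a higher total level of the base after the knockdown, by mass spectrometry.

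The body excess of long genes was -0.699 ± 0.234 in TDG KD and -0.135 ± 0.0576 in the siRNA control (SD, n = 2 each). The difference of -0.564 had the smallest possible p of the exact permutation test, 0.333 (0.444 adjusted over 4 comparisons), and it was -0.358 within BHAM and -0.770 within EAR. In shorter genes the excess of TDG KD minus siRNA control was -3.05 within BHAM and 4.92 within EAR. Both TDG KD libraries lay below both siRNA control libraries in 91 long genes (18.1%), against 13.4% of all genes and 16.5% of those of 20 to 100 kb. Both lay above in 10 long genes (1.99%), against 8.24% of all genes. Among the 10, named after their values were seen, were Ephb1, an ephrin receptor, with 10.63 and 10.47 in TDG KD and 10.33 and 6.37 in the siRNA control, and Prkca, a protein kinase C, with 10.46 and 12.8 in TDG KD and 10.43 and 5.99 in the siRNA control. In both the gap between the higher siRNA control and the lower TDG KD library was small.

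At the first 1 kb of long genes TDG KD was lower than the siRNA control within BHAM, at 11.4% and 29.0%, and higher within EAR, at 51.0% and 16.1%. The 2 pairs thus went opposite ways, and the median width of enriched domains was 6300 bp and 5900 bp in TDG KD, against 9400 bp and 24550 bp in the siRNA control.

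The siRNA control and wild type cells had body shares of 19.0 ± 1.61% and 16.3 ± 0.305% (SD, n = 2 each), and an excess of -0.135 ± 0.0576, against -1.14 ± 0.0824 in wild type cells. The differences of 2.79 points and 1.00 reads per 100 kb and M reads both had the smallest possible p of the exact permutation test, 0.333. Without chromosome 8 they were 0.97 points (exact p = 1) and 0.54 (exact p = 0.333). The siRNA control and wild type cells also differ in feeder cells and transfection, whose parts cannot be told apart.

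The 29 long genes on chromosome 8 stood apart in the transfected cells. Their mean body excess was 7.35 and 8.50 in TDG KD and 9.23 and 9.08 in the siRNA control, against 0.147 and 1.02 in wild type cells, while long genes of the other autosomes had -1.44 to -0.656 in all 6 libraries. Their body share was 28.2% and 42.03% in TDG KD and 49.8% and 57.7% in the siRNA control, against 18.4% and 24.2% in wild type cells. Csmd1, Cdh13, Wwox, Large, A330008L17Rik and Gm20388 all lie there, and their values in the siRNA libraries are to be read beside this shift of the chromosome. The mean share of long genes was below that of genes of 20 to 100 kb on each of the 19 autosomes in all 6 libraries.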

How the data were processed

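5fC pulldowns of 2 TDG KD, 2 siRNA control and 2 wild type libraries of J1 cells were used, with groups taken from the labels. Reads were placed on mm9 by the authors using BWA (the submitters' processing notes name 0.6.1), those with a mapping quality under 15 were dropped, and rseg (mode 2, bins of 100 bp) called domains per library against 1 input. Each deposited domain carries a state and a score in which pulldown reads minus input reads are averaged over its bins, with no scaling for depth. A further deposited score, which grows with the width of the domain, was not used. By the study's supplement the pulldowns had 20.4 to 45.9 M and the input 26.5 M uniquely placed reads. Precision rests on 2 libraries per condition, and counting errors are not given because reads per gene were not analysed here.

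Gene models came from GENCODE M1 and the mm9 sequence, and sequences are printed from that genome. CGIs were called from the sequence (at least 200 bp, over 50% GC, observed to expected CpG ratio over 0.6, repeats not masked). Shares and excesses were averaged over genes, each gene counting once. Excess is the domain value minus the library mean, per M reads of the pulldown, with no separate scaling of the input. The computation used Python 3.11.15, NumPy 2.4.6, pandas 2.3.3, SciPy 1.17.1 and Matplotlib 3.10.9, and was tested on simulated domains. Within-library contrasts were tested by flipping signs over 6 libraries and conditions by permuting 2 against 2, at a threshold of 0.05. Named genes were the 10 longest, the 10 highest and 5 lowest by the lower wild type share with ties in alphabetical order, those next to the length limit, and the ends of 6 gene lists. Members and lists were chosen with earlier results of these data known. The upstream sequence of 2210408I21Rik is not shown because an exon overlaps it. Alternatives were pooled base pairs, stricter domains, confident sequence, other genes as reference, matched GC content, CGI starts, unscaled excess, chromosome 8 and each library or prefix left out. Expression and the input reads were not analysed here.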

Additional observations from a re-analysis of the deposited data

How the results depend on the processing

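Of 88 recomputations of the 8 contrasts within libraries that kept all libraries, 81 kept the direction and the side of the threshold, 3 lost the call and 4 turned round. All 4 that turned came from limiting both classes to 38 to 42% GC, where long minus shorter genes was 0.58 points (exact p = 0.25) and 0.96 excess (exact p = 0.125) for the body and 3.00 points and 1.98 excess for the first 10 kb (exact p = 0.03125 for both). The calls lost were first 10 kb minus rest with base pairs pooled over genes, 3.87 points and 1.25 excess, and the first 10 kb excess against genes of 100 to 300 kb, -2.07 (exact p = 0.0625). The cause was not tested.

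With 5 libraries the smallest exact p is 0.0625, so no call can hold without 1 of them. The values then ranged from -22.9 to -19.3 points and -7.52 to -5.21 excess for the body, -17.4 to -13.8 points and -5.42 to -3.94 excess for the first 10 kb, 5.32 to 6.89 points and 1.44 to 2.51 excess for first 10 kb minus rest, 7.08 to 8.64 points for last minus first segment and 6.18 to 8.85 points for exon minus intron. In the 4 BHAM libraries the same contrasts, in this order, were -18.9, -7.20, -13.4, -5.16, 6.22, 2.33, 6.91 and 8.00, and in the 2 EAR libraries -23.6, -5.49, -19.0, -3.93, 5.65, 1.72, 9.10 and 7.25.

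TDG KD minus siRNA control body share was 0.90 points in the EAR libraries, the opposite sign to the pooled value, and ranged from -13.8 to -0.24 points without 1 library, with -0.24 reached without TDG KD replicate 1. For the excess that range was -0.73 to -0.40, and for siRNA control minus wild type 1.65 to 3.92 points and 0.94 to 1.06 excess. At 38 to 42% GC, TDG KD minus siRNA control was -2.45 points and -1.33 excess, and siRNA control minus wild type 0.43 points and 2.91 excess. With domains of at least 1000 bp siRNA control minus wild type was 5.29 points.

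The share of long genes with at least 50% of the body enriched in both TDG KD replicates was 1.79% without the weakest 25% of domains, 4.97% of confident sequence, 2.11% without chromosome 8, 2.07% in genes that overlap no other and 0% at 38 to 42% GC. In wild type cells it was 1.79% without the weakest domains and 0% at that GC content, and in the siRNA control 2.22% at that GC content. Introns only, members with 1 transcript of at least 300 kb and sets without the 2 gene models over 3 Mb were added after the data were seen and changed no call. No paired analysis was possible because the replicate numbers were given in accession order, and only the prefixes link libraries of different conditions. In TDG KD replicate 1, the shallowest library, 17.5% of long gene bodies was unconfident, and the part of depth in this was not tested.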
